A study of Mus musculus with 4 samples.

Results

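The 10 genes described here encode enzymes and structural proteins of heterochromatin and of the nuclear lamina, namely Suv39h2, Setdb1, Ehmt1, Ehmt2, Trim28, Cbx1, Cbx3, Cbx5, Lmna and Lbr. Their members in the ATAC-seq table are the peaks that overlap one of these genes or the 5 kb before its start in the GENCODE vM21 annotation (GRCm38, the assembly that mm10 names). This rule gave 29 of the 117282 peaks and used no measured value. ATAC-seq tags accessible DNA with a transposase, and the count of sequenced fragments at a peak is read as the openness of its chromatin.

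The samples were mesenchymal stem cells (MSCs) from bone of old mice (18 to 22 months) and young mice (3 to 5 months), with 2 samples per age, and all 4 were cultured at 2% O2 in αMEM with serum and antibiotics. The study's methods describe wild-type male C57BL/6N mice of 3 to 5 months and do not describe mice of 18 to 22 months. They describe MSCs that grew out of bone fragments and were then sorted as CD45-, TER-119-, CD140a+ and Sca-1+ cells. The labels name no transgene and no treatment other than the oxygen level for either age. The cells had been expanded in culture, so that the values are those of cultured cells and not of the bone itself. Because the labels do not say whether the samples came from separate animals or cultures, p-values measure only the spread between these samples, which may be technical.

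Constitutive heterochromatin is marked by methylation of histone H3 at lysine 9. SUV39H2 and SETDB1 place this mark as trimethylation, the EHMT1 and EHMT2 complex (GLP and G9a) places mono- and dimethylation, and TRIM28 (KAP1) brings SETDB1 to transposons bound by zinc finger repressors. The HP1 proteins encoded by Cbx1 (HP1β), Cbx3 (HP1γ) and Cbx5 (HP1α) read the methylated lysine and compact the chromatin, while lamin A/C from Lmna and the lamin B receptor from Lbr hold heterochromatin at the nuclear envelope.

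Each of the 10 genes had a peak at a promoter of its own, defined as a peak within 1 kb of the start of one of its protein-coding transcripts. In all, 13 of the 29 peaks were such promoter peaks. Of the other 16, 3 lay at the promoter of a neighbouring protein-coding gene, 4 over exons, 8 in introns and 1 between genes. Suv39h2, Setdb1, Cbx3, Lmna and Lbr had 1 peak each, whereas Ehmt1 had 9, Cbx5 had 5, Trim28 had 4, and Cbx1 and Ehmt2 had 3. In 9 of the 10 genes the densest peak was a promoter of its own, as the map of peaks along each gene shows; in Ehmt2 it was the neighbouring promoter upstream.

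**Figure D1:**
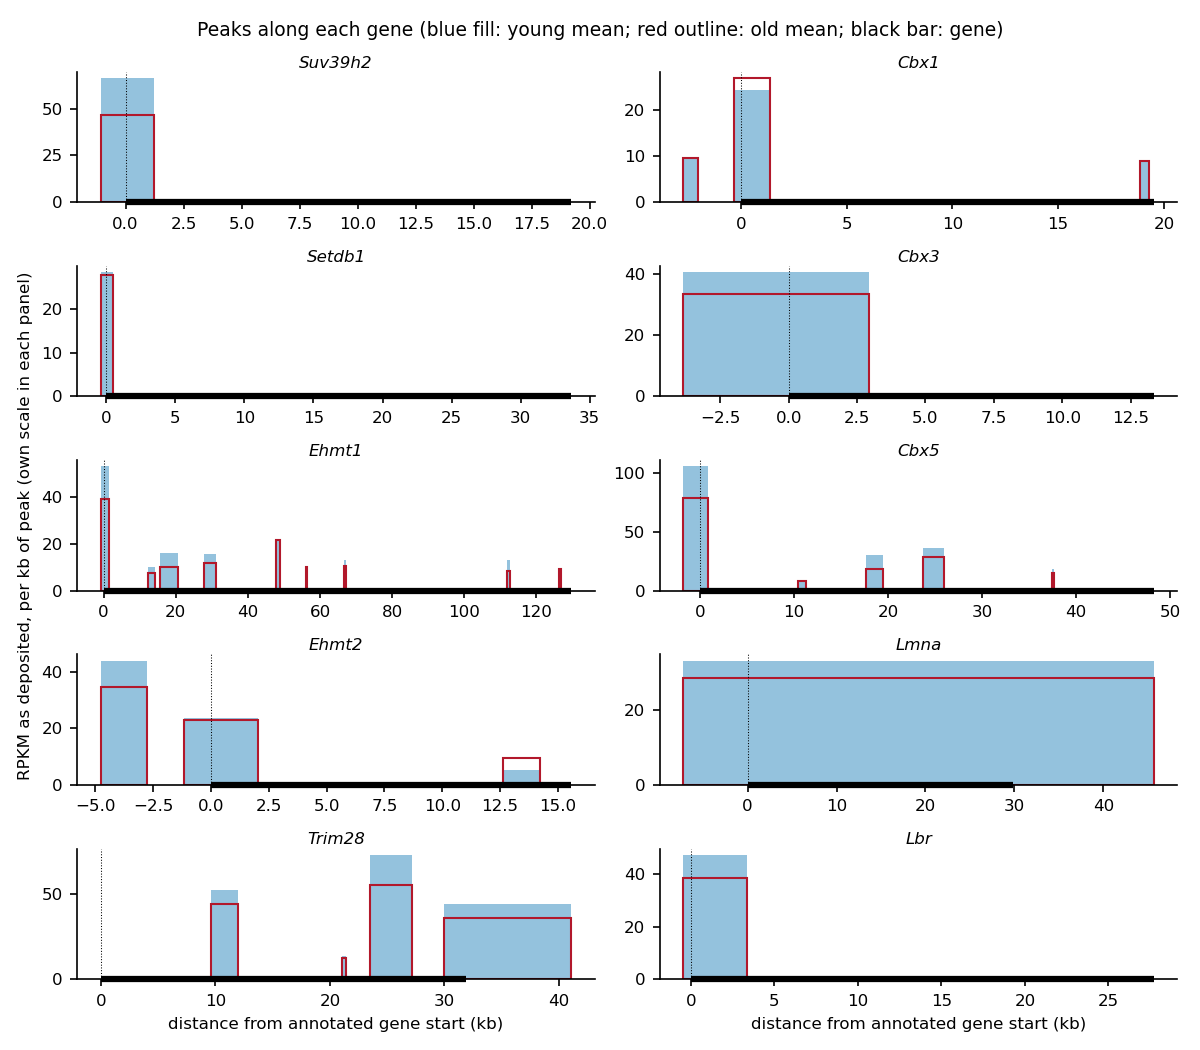
Mean deposited RPKM per kb of peak (vertical axis, own scale in each panel) against distance from the annotated gene start in kb, for the 10 genes; blue fill is the mean of 2 young samples, the red outline the mean of 2 old samples and the black bar the gene. Ehmt1 carried 9 separate peaks over 129.7 kb, whereas 1 peak of 52.9 kb covered all of Lmna.

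The values are named RPKM in the deposited table and are read here as counts scaled to the library total, not divided by peak width. Levels of different peaks are therefore compared here per kb of peak, and age differences are given both on the values as deposited and after division by RLE factors, which set the typical peak of the table to no change. These factors were between 0.813 and 1.15. Counts were recovered by taking the smallest nonzero value of each sample as a single count. At the 29 peaks they ranged from 7 to 6107 per sample, and 3 counts corresponded to a value between 0.921 and 1.06. Library totals would be 28259470 to 32559794 counts if the scale is 10000000 per library, which was assumed and not measured. The sorted-cell genes Ly6a (Sca-1) and Pdgfra (CD140a) and 8 of 8 MSC genes had a promoter peak. Of the blood genes, Lyz2 had one, and Ptprc (CD45), Cd3e, Adgre1 and Itgam had none. The erythroid gene Klf1 and 2 of 3 endothelial genes (Pecam1 and Kdr, not Cdh5) did. The deposited value of the Klf1 promoter peak was 42.3 and 55.3 in old samples and 61.9 and 45.2 in young samples, and that of Lyz2 lay between 14.7 and 16.3 in all 4 samples. For the endothelial genes the summed value was 40.2 and 50.7 in old samples and 40.3 and 48.3 in young samples.

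The promoters are shown by sequence because they are the only class of site that all 10 genes share. RefSeq windows of 300 bases around an annotated start (GRCm38.p6) were found for all 10 genes, 14 windows in all, and each lay wholly inside a peak of its own gene. Capitals mark matches, on either strand, to the letters of a GC box, a CCAAT box, an ETS site or a cAMP response element, which are spelled out after the sequences. The 6 windows below cover the range from CpG-poor to CpG-rich.
Suv39h2 promoter, chr2:3474937-3475236, minus strand: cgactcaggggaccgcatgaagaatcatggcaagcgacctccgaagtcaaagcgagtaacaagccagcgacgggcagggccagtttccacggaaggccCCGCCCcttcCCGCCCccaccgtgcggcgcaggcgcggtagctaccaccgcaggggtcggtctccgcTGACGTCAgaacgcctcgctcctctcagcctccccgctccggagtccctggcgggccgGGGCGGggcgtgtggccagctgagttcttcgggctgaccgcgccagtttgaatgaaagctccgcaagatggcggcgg
Setdb1 promoter, chr3:95357153-95357452, minus strand: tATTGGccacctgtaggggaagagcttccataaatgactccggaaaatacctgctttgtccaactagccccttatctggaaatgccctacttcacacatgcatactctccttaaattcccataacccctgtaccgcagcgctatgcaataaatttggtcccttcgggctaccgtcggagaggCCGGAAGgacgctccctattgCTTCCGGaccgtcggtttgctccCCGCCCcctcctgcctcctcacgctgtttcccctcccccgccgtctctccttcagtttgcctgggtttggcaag
Cbx1 promoter, chr11:96788885-96789184, plus strand: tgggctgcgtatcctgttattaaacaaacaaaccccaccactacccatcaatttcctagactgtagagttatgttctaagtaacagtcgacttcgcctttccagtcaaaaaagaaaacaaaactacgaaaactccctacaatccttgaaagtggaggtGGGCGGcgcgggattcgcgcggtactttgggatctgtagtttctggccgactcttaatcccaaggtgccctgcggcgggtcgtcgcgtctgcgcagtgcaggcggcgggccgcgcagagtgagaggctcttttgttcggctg
Cbx5 promoter, chr15:103239803-103240102, minus strand: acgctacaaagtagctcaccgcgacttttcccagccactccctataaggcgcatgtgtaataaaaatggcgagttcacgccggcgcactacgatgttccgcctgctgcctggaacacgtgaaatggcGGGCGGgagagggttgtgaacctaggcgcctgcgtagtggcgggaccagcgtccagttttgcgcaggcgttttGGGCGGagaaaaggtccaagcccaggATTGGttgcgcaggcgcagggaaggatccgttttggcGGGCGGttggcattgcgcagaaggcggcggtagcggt
Lmna promoter, chr3:88503303-88503602, minus strand: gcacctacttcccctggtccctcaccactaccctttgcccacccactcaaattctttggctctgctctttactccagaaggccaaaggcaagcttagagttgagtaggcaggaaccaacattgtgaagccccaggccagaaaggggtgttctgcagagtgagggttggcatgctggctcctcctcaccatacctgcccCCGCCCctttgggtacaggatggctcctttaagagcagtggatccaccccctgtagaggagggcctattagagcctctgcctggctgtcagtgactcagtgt
Lbr promoter, chr1:181842352-181842651, minus strand: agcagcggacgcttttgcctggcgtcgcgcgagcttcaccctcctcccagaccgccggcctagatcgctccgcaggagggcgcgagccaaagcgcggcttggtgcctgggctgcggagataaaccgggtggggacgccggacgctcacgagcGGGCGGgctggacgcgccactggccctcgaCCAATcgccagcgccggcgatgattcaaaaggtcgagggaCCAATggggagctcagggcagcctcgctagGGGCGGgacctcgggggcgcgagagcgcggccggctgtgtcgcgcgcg

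A GC box (GGGCGG) was present in 12 of the 14 windows, against 35.7% of all 32851 windows in the table. The CCAAT box was found in 4 (37.4% of all windows). The ETS letters CCGGAAG were in 2 (8.86%). The cAMP response element TGACGTCA was in 1, that of Suv39h2 (1.79%). Matches to these motifs could overlap. The Setdb1 window held the ETS letters once on each strand. The TATA box letters TATAAA (13.6% of all windows) and the NRF1 letters GCGCATGC (2.71%) were in none. CpG counts ran from 1 in the upstream Lmna window to 42 in the Lbr window, with a median of 7 over the whole table, and 12 of the 14 windows were above that median. These are matches of letters in a window and say nothing about binding of a factor.

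Over whole peaks, the promoter peaks of the 10 genes held a median of 4.76 CpG dinucleotides per 100 bp, and the other 16 peaks 0.827, against 1.09 over all peaks. CpG content and accessibility per kb (log2 of the mean of the 4 samples) went together across the 29 peaks with Pearson's r = 0.69 (0.47 over the 13 promoter peaks, 0.63 over the other 16 and 0.28 over the 117272 nuclear peaks with a value above 0), where all points come from the same 4 libraries and peaks are not replicates. The promoters of Ehmt1, Cbx1, Setdb1 and Suv39h2 were among the most CpG-dense and still differed in level, as the plot of CpG content shows.

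**Figure D2:**
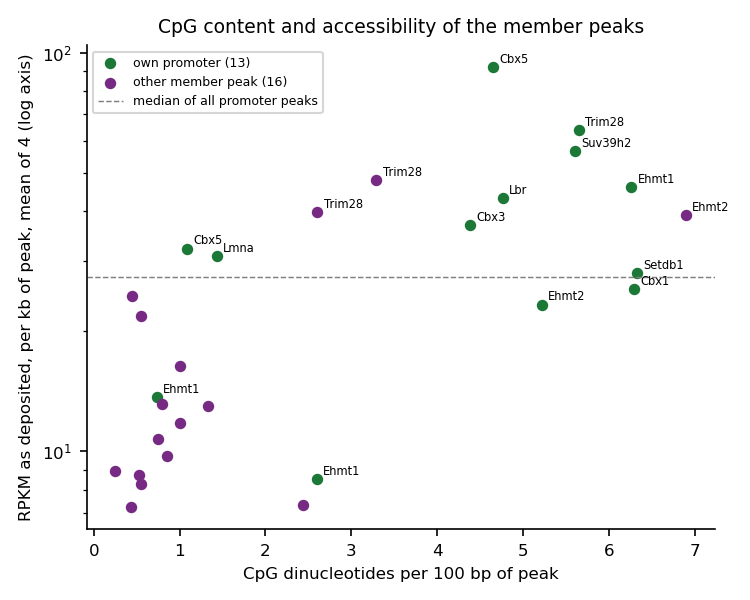
Deposited RPKM per kb of peak, mean of 4 samples (vertical log axis), against CpG dinucleotides per 100 bp of peak (horizontal axis) for the 29 peaks; green points are the genes' own promoters, purple points the other peaks, and the dashed line is the median of all promoter peaks of the table (27.4 RPKM per kb). The Cbx5 promoter was the highest point at 91.8 RPKM per kb with 4.65 CpG per 100 bp.

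Among the promoter peaks, the upstream Cbx5 peak (chr15:103239001-103241600) was the densest. It had 91.8 RPKM per kb over the 4 samples and stood at percentile 98.3 of the 16205 promoter peaks of the table; it also holds the start of Hnrnpa1, a splicing factor gene transcribed the other way. Trim28 followed with 63.8, Suv39h2 with 56.7, Ehmt1 with 45.9, Lbr with 43.1 and Cbx3 with 37.0 RPKM per kb. Setdb1 (28.1), Cbx1 (25.6) and Ehmt2 (23.3) lay near the median of all promoter peaks, and in all 9 of the 13 were above it. The ranges over the 4 samples separated Cbx5 from Setdb1, Cbx1 and Ehmt2, whereas Setdb1, Cbx1 and Ehmt2 overlapped with each other, as the plot of promoter values shows.

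**Figure D3:**
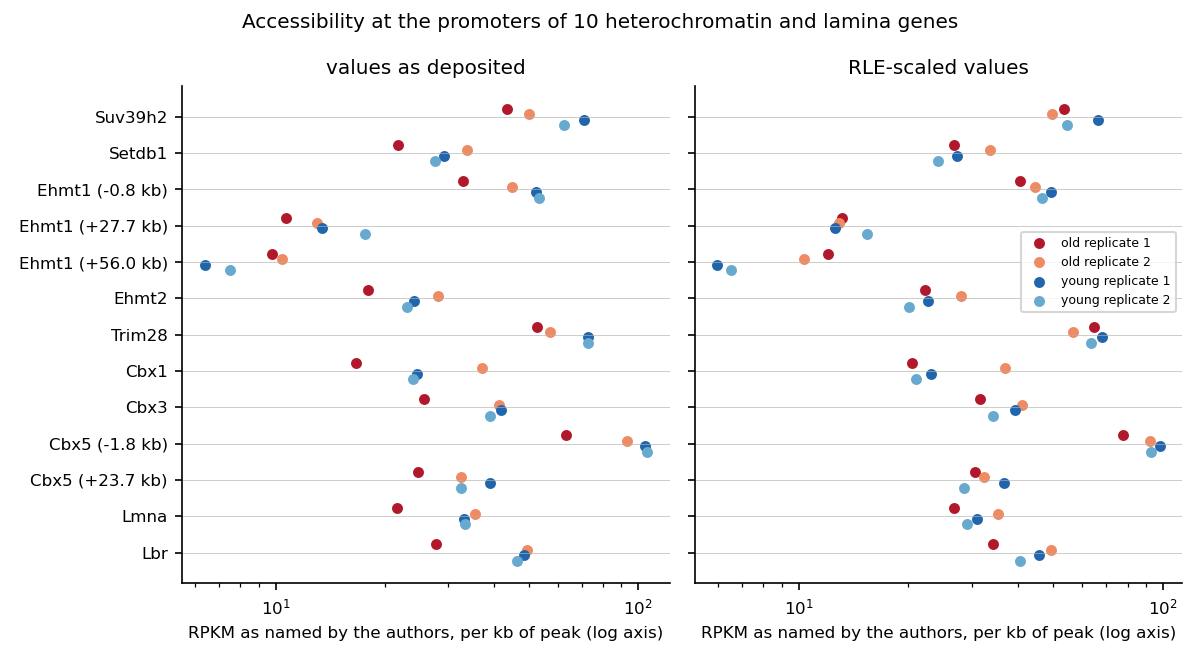
RPKM per kb of peak (horizontal log axis) at the 13 promoter peaks of the 10 genes, 1 point per sample, as deposited (left) and after RLE scaling (right); numbers after a name give the distance of the peak's upstream edge from the gene start. As deposited, old replicate 1 is the leftmost point in all rows but that of the Ehmt1 peak at +56.0 kb; after scaling the points of the 2 ages interleave in most rows.

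No peak of these genes passed the threshold of the study. With limma on RLE-scaled values, 0 of the 29 peaks had an adjusted p under 0.01, where 0.0563% of all peaks did, and the lowest adjusted p was 0.0862. An unadjusted limma p under 0.05 was found at 2 of the 29 (6.90%), both higher in old MSCs, against 16.4% of all peaks (10403 lower, 8790 higher). On the values as deposited, 0 of 29 passed (limma, 1.18% of all peaks). There 3 lower and 1 higher peak had an unadjusted limma p under 0.05, against 20.2% of all peaks (21666 lower, 1996 higher). Leaving out old replicate 1 changed this count to 2 called peaks, at Lmna and Cbx1, in a fit that called 8.79% of all peaks; leaving out any other sample gave 0.

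The median level over both old samples followed that of the table. As deposited, 24 of the 29 peaks (82.8%) were lower on average in old MSCs, against 74.6% of all peaks, and the median log2 fold change was -0.27 in either set. In bulk samples, closed chromatin in more of the cells and less open chromatin in each cell cannot be told apart. Both old samples lay below both young samples at 12 of the 29 (43.5% of all peaks did) and above them at 3 (7.56% of all peaks). After RLE scaling 16 were lower and 13 higher, with a median of -0.025 against 0.0011 over all peaks, and the non-overlapping counts were 6 below (24.2% of all peaks) and 4 above (23.2%). The lower deposited level lay mainly in old replicate 1. Its median difference from young replicates 1 and 2 over the 29 peaks was -0.51 and -0.53 on the log2 scale, against -0.37 and -0.48 over all peaks. That of old replicate 2 was 0.025 and -0.0070, against -0.074 and -0.17 over all peaks. Old replicate 1 was the lowest sample at 25 of the 29 peaks as deposited, and at 56.3% of all peaks. On the assumed scale, the share that fell in peaks was 43.8% and 50.3% in the old and 57.5% and 62.9% in the young samples. The part of this share in these values was not tested.

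**Figure D4:**
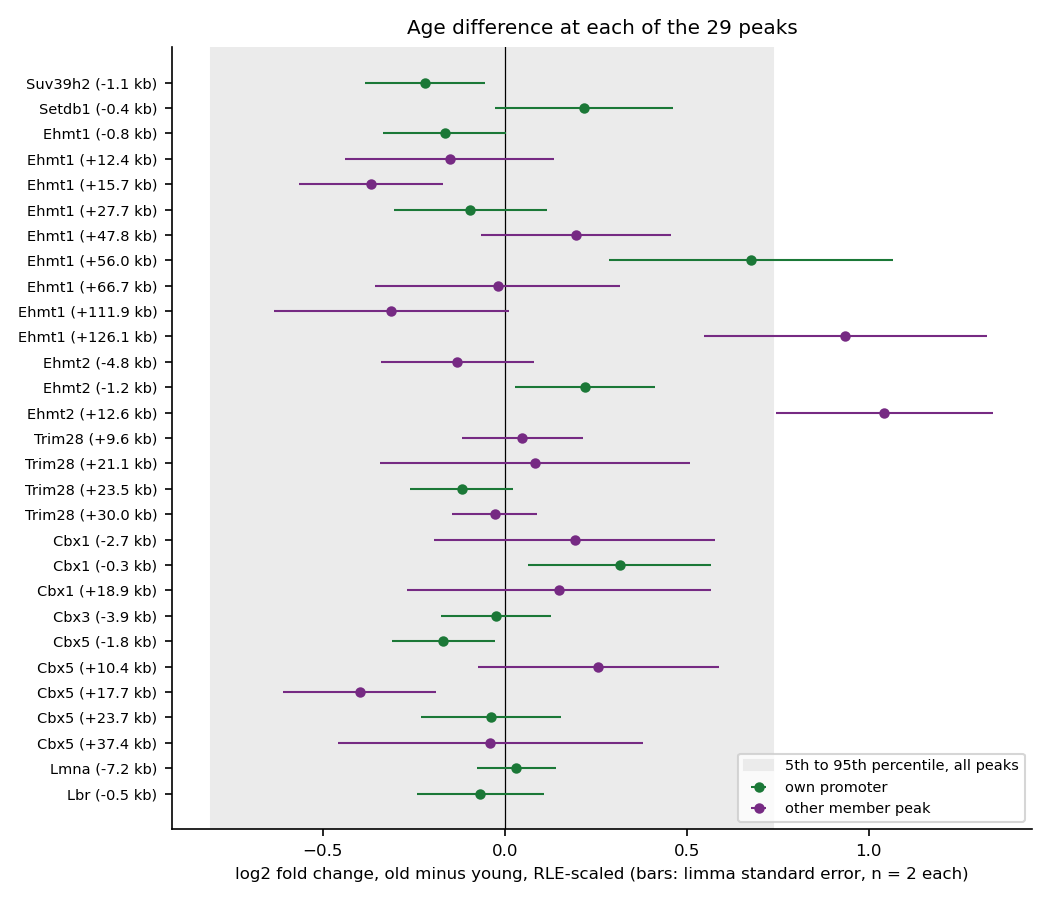
Log2 fold change of old minus young MSCs at each of the 29 peaks after RLE scaling (points), with the limma standard error (bars, n = 2 samples each); green marks the genes' own promoters, purple the other peaks, and the grey band runs from the 5th to the 95th percentile of all peaks. Only the Ehmt1 peak at +126.1 kb and the Ehmt2 peak at +12.6 kb lie outside the band, both on the side of higher values in old MSCs.

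Among the H3K9 methyltransferase genes, the Suv39h2 promoter (chr2:3473801-3476100, covering the first exons) held 286 and 375 counts in old replicates 1 and 2 and 460 and 422 counts in young replicates 1 and 2, which gave deposited means of 108 ± 10.7 RPKM and 153 ± 13.7 RPKM (SD, n = 2 each). Each old sample was below each young sample, as deposited and after RLE scaling, where the values were 123 and 114 against 153 and 125. The scaled log2 fold change was -0.22 with a standard error (SE) of 0.17 and a limma adjusted p of 0.545, so that the difference did not pass the test. Without young replicate 1 it was -0.078, and without young replicate 2 it was -0.36.

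Setdb1 had the narrowest main promoter of the set, a peak of 0.9 kb (chr3:95356701-95357600) over a gene of 33.7 kb with no other peak. Its deposited values were 19.6 and 30.4 RPKM in old and 26.2 and 24.8 RPKM in young samples. On that scale the young samples lay between the old ones, and the log2 fold change was -0.059. After scaling young replicate 2 was the lowest sample (21.7 RPKM), and the log2 fold change was 0.22 (SE 0.24, limma adjusted p = 0.706).

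Ehmt1 is the longest of the genes (129.7 kb) and carried 3 promoter peaks and 6 others. Its main promoter (chr2:24918101-24920400, 7 annotated starts) had 75.9 and 104 RPKM in old and 121 and 122 RPKM in young samples as deposited. The old samples were the lower ones on both scales, with a scaled log2 fold change of -0.16 (SE 0.17, limma adjusted p = 0.674). The peak at +27.7 kb (chr2:24888501-24891900), at an internal start, had 36.4 and 44.2 RPKM in old and 45.6 and 60.2 RPKM in young samples. After scaling the groups overlapped there, and the log2 fold change was -0.095 (SE 0.21).

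Of the 9 Ehmt1 peaks, promoters included, 6 were lower and 3 higher in old MSCs after scaling, where 49.9% of all peaks were lower. The intronic peak at +15.7 kb (chr2:24899001-24903900) had 61.5 and 49.1 scaled RPKM in old and 73.3 and 69.2 in young samples, a log2 fold change of -0.37 (SE 0.20, limma adjusted p = 0.370) that was -0.21 without old replicate 2. The exonic peak at +111.9 kb (chr2:24806901-24807700) had 6.88 and 7.93 scaled RPKM in old and 10.3 and 8.61 in young samples, a log2 fold change of -0.31 (SE 0.32) that was -0.20 without young replicate 1. The old samples were below the young ones at both. Toward the 3′ end the intronic peak at +126.1 kb (chr2:24792801-24793500) went the other way, with 6.88 and 7.32 against 4.31 and 2.37 scaled RPKM, a log2 fold change of 0.94 (SE 0.39, limma adjusted p = 0.238) that was 0.61 without young replicate 2. It rested on 16 and 24 counts in the old and 13 and 8 counts in the young samples. The small peak 323 bp from an internal start at +56.0 kb (chr2:24863101-24863600) was also higher in both old samples, with 14 and 17 against 9 and 11 counts and a log2 fold change of 0.68 (SE 0.39, limma adjusted p = 0.406).

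The Ehmt2 promoter (chr17:34897301-34900500) had 57.7 and 90.0 RPKM in old and 77.1 and 73.8 RPKM in young samples as deposited. On that scale the young samples again lay between the old ones, and the log2 fold change was -0.065. After scaling young replicate 2 was the lowest sample (64.4 RPKM), and the log2 fold change was 0.22 (SE 0.19, limma adjusted p = 0.609). A second peak, 2769 bp before the gene at the paired promoters of C2 and Zbtb12 (chr17:34893701-34895700), had 46.9 and 91.2 RPKM in old and 81.7 and 93.8 RPKM in young samples, and the groups overlapped. It was the most distant peak inside the 5 kb window. The nearest peak outside the window lay 5055 bp before Lbr, with 7.69 and 7.06 RPKM in old and 7.79 and 5.78 RPKM in young samples.

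The largest age difference of the 29 peaks over the 4 samples was in the 3′ part of Ehmt2, the end that encodes the catalytic SET domain. The exonic peak at +12.6 kb (chr17:34911101-34912700) had 12.2 and 18.1 RPKM in old and 7.43 and 9.18 RPKM in young samples as deposited, from 35 and 59 against 21 and 27 counts. After scaling these were 15.1 and 18.0 against 6.97 and 8.01 RPKM (means 16.5 ± 2.07 and 7.49 ± 0.740, SD, n = 2 each). The old samples were the higher ones on either scale. The mean ratio was 2.21 and the log2 fold change 1.04 (SE 0.30, limma unadjusted p = 0.00250, adjusted p = 0.0862), which did not pass the threshold. The peak was weak, with 7.34 RPKM per kb, and 349 of its 1600 bases (21.8%) were coding. The coding start nearest to its midpoint was that of the neighbouring gene Slc44a4, at 2570 bp. The nearest Ehmt2 start lay 3701 bp from the peak, so the peak cannot be assigned to Ehmt2 alone. Exonic peaks of the whole table (11807) were shifted in the same direction, with a median scaled log2 fold change of 0.11 and 61.4% higher in old MSCs. The 300 bases of this peak with the most coding sequence are printed with coding bases in capitals, and hold 200 coding bases in 2 exons and 16 CpG dinucleotides.
Ehmt2 exonic peak, chr17:34911363-34911662, plus strand: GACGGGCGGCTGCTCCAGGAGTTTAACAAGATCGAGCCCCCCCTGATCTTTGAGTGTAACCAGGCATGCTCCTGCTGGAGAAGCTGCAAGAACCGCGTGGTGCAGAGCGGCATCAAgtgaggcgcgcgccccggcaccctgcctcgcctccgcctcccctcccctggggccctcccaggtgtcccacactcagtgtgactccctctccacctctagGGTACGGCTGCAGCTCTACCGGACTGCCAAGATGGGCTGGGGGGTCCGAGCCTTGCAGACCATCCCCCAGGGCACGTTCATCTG

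At Trim28, the corepressor gene, 1 of the 4 peaks was the promoter (chr7:13022601-13026300), with 195 and 211 RPKM in old and 269 and 269 RPKM in young samples as deposited. This was the closest agreement between young samples among the promoter peaks, and both old samples were lower. After scaling the values were 240 and 210 against 252 and 235, the groups overlapped, and the log2 fold change was -0.12 (SE 0.14, limma adjusted p = 0.723). The other peaks lay at the Zbtb45 promoter inside the annotated gene span, in an intron with 7 to 16 counts per sample, and at the promoters of Chmp2a and Ube2m (11.1 kb wide). Their scaled log2 fold changes were 0.049, 0.084 and -0.027, all smaller than their standard errors. The last of these promoters lie beyond the 3′ end of Trim28, which only the edge of their peak overlaps, and only the peak at 13022601 can be read as that of Trim28 itself.

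Of the HP1 genes, Cbx5 had the strongest promoter and Cbx1 the weakest. At the upstream Cbx5 promoter the deposited values were 164 and 242 RPKM in old and 272 and 276 RPKM in young samples, and the scaled values 202 and 240 against 255 and 241. Old samples were lower on both scales, but after scaling old replicate 2 and young replicate 2 differed by less than 1 RPKM, and the log2 fold change was -0.17 (SE 0.14, limma adjusted p = 0.593), with values of -0.045 without old replicate 1 and -0.29 without old replicate 2. The internal Cbx5 promoter (chr15:103213801-103216100, 1.09 CpG per 100 bp) had 57.0 and 74.9 against 89.9 and 74.8 RPKM as deposited and a scaled log2 fold change of -0.038 (SE 0.19). Between these promoters, the intronic peak at +17.7 kb (chr15:103220301-103222100) had the lowest log2 fold change of the 29 peaks over the 4 samples. It had 31.5 and 35.6 RPKM in old and 49.5 and 59.5 RPKM in young samples as deposited, and 38.7 and 35.4 against 46.4 and 51.9 after scaling. The groups did not overlap on either scale, and the log2 fold change was -0.40 (SE 0.21, limma unadjusted p = 0.0744, adjusted p = 0.360).

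The Cbx3 promoter was a broad peak of 6.8 kb (chr6:51466501-51473300) that also holds the start of Hnrnpa2b1, another splicing factor gene. Its deposited values were 174 and 281 RPKM in old and 285 and 266 RPKM in young samples. Only old replicate 1 was low, and the scaled log2 fold change was -0.025 (SE 0.15, limma adjusted p = 0.955).

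The Cbx1 promoter (chr11:96788801-96790500) showed the widest gap between old replicates. Its deposited values were 28.3 and 63.0 RPKM in old and 41.8 and 40.8 RPKM in young samples, and the scaled values 34.9 and 62.5 against 39.1 and 35.6. As deposited the young samples lay between the old ones, and after scaling old replicate 2 alone stood above the rest. The scaled log2 fold change was 0.32 (SE 0.25, limma adjusted p = 0.567). Without old replicate 1 it was 0.73 and passed (limma adjusted p = 0.00550), and without old replicate 2 it was -0.097. Over the 7156 peaks of chromosome 11, which holds Cbx1, old replicate 2 was above young replicates 1 and 2 by a median of 0.16 and 0.20 on the log2 scale, against 0.66 and 0.79 at the Cbx1 promoter. The part of the shift of the chromosome in the Cbx1 value was not tested. The other Cbx1 peaks, 2.0 kb before the gene and near its 3′ end, held 7 to 30 counts per sample and overlapped between the ages.

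The lamina genes each had 1 peak. At Lmna a single accessible domain of 52.9 kb (chr3:88464301-88517200) covered the whole gene of 29.8 kb and its 4 coding starts; it ranked 19 in width among all peaks, of which 25 reached 50 kb. It had 1147 and 1876 RPKM in old and 1747 and 1761 RPKM in young samples as deposited, which per kb (30.9 RPKM) put it at percentile 56.6 of all promoter peaks, so that its width and not its density was unusual. The young samples agreed closely and lay between the old ones. The scaled log2 fold change was 0.031 (SE 0.11, limma adjusted p = 0.919). Without old replicate 1 it was 0.23 and passed (limma adjusted p = 0.000515), without old replicate 2 it was -0.17, and on the values as deposited -0.26.

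The Lbr promoter (chr1:181839701-181843500) had 106 and 188 RPKM in old and 185 and 176 RPKM in young samples as deposited. As at Lmna and Cbx3, old replicate 1 was low and old replicate 2 level with the young samples. The scaled log2 fold change was -0.067 (SE 0.17, limma adjusted p = 0.888).

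Differences between replicates were also set beside the differences between ages. A difference between 2 single samples varies more than one between 2 means. A larger gap between replicates is therefore usual without any age effect, and the counts are read only beside the shares over all peaks. After scaling, old replicates 1 and 2 differed from each other by more than the age means did at 19 of the 29 peaks (65.5%), and at 9 of the 13 promoters, against 54.3% of all peaks and 62.9% of all promoter peaks. The young replicates differed by more than the age means at 13 of the 29 peaks, against 43.2% of all peaks. Old replicate 2 was the higher of the old samples at 21 of the 29 peaks, against 49.0% of all peaks and 58.3% of all promoter peaks, and was the highest of all 4 samples at 15 of the 29 (31.1% of all peaks). The gap between old replicates was 0.82 at Cbx1, 0.52 at Lbr, 0.40 at Lmna and 0.38 at Cbx3 on the log2 scale, whereas the age means there differed by 0.32, -0.067, 0.031 and -0.025. Old replicate 2 was instead the lower one at 8 peaks, by 0.027 to 0.32: the Suv39h2 promoter, the Ehmt1 peaks at +15.7 kb, +27.7 kb and +56.0 kb, the Cbx5 peak at +17.7 kb and 3 of the Trim28 peaks.

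**Figure D5:**
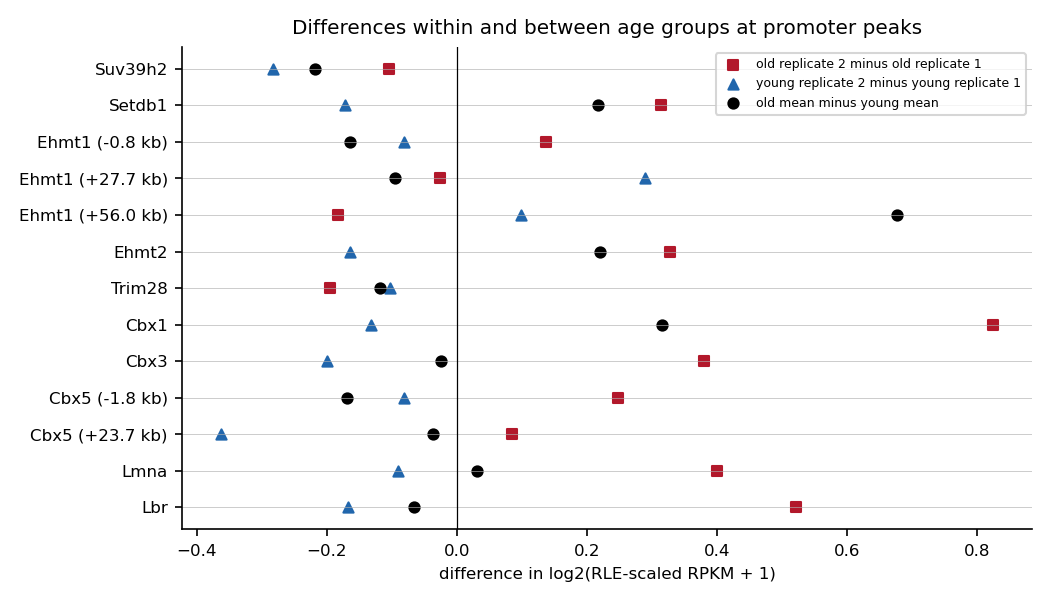
Differences in log2(RLE-scaled RPKM + 1) at the 13 promoter peaks: old replicate 2 minus 1 (red squares), young replicate 2 minus 1 (blue triangles) and old mean minus young mean (black circles). At Cbx1, Lbr, Lmna and Cbx3 the red square lies farther from 0 than the black circle; at the Ehmt1 peak at +56.0 kb the black circle is the farthest.

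Summed over the peaks of each gene, the old samples lay below the young samples at 4 genes as deposited (Suv39h2, Ehmt1, Trim28 and Cbx5) and at 3 after scaling (Suv39h2, Ehmt1 and Cbx5). Of the 17308 protein-coding genes with a peak by the same rule, 52.6% did so as deposited and 25.2% after scaling. The sums for Ehmt1 were 258 and 271 scaled RPKM in old and 292 and 286 in young samples, and those for Cbx5 322 and 362 against 396 and 368. In each of these the two-sided exact permutation test gave p = 0.33, the smallest that 2 samples against 2 allow. At the other 7 genes the scaled sums overlapped, and 0 of the 10 genes had both old samples above both young samples on either scale, against 1.94% of protein-coding genes as deposited and 16.4% after scaling.

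The same comparison was made for other genes of these pathways. Lists of 23 partners of H3K9 methylation and silencing, 11 H3K9 demethylases and 19 genes of the lamina and inner nuclear membrane all had peaks, 261 in total, and 0 passed with RLE scaling (limma). A limma unadjusted p under 0.05 was found at 8 of 77 partner peaks (2 lower, 6 higher) and 11 of 57 demethylase peaks (1 lower, 10 higher). The lamina list had 24 of 127 (9 lower, 15 higher). Of all peaks, 16.4% had such a p (10403 lower, 8790 higher). Their median scaled log2 fold changes were 0.0017, 0.12 and 0.080. The 2 peaks with the lowest p in each list were 4 exonic and 2 intronic peaks, none at a promoter. In the whole table, promoter peaks were 16205 of 117282 peaks, and 9.65% of them had an unadjusted limma p under 0.05.

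Among the silencing partners these were exonic peaks of Morc2a, an ATPase of the HUSH silencing pathway. The first (chr11:3686401-3688400) had 29.3 and 40.3 scaled RPKM in old and 11.3 and 13.1 in young samples, a log2 fold change of 1.43 (SE 0.26, limma adjusted p = 0.0178), and the other (chr11:3684001-3684800) one of 1.26 (adjusted p = 0.0563). Morc2a is on chromosome 11, where old replicate 2 was above young replicates 1 and 2 by a median of 0.16 and 0.20. For old replicate 1 these medians were -0.0061 and 0.032. The part of the shift of the chromosome in the Morc2a values was not tested. Among the demethylases, intronic peaks of Phf2 had log2 fold changes of 0.83 (chr13:48857101-48859900, limma adjusted p = 0.0845) and 1.06 (chr13:48841701-48842700, limma adjusted p = 0.0925). In the lamina list, an exonic peak of Ankle2, a LEM-domain protein gene (chr5:110241301-110242100), had 17.6 and 20.1 against 6.30 and 7.12 scaled RPKM, a log2 fold change of 1.37 (SE 0.30, limma adjusted p = 0.0341). An exonic peak of Syne1, the nesprin-1 gene (chr10:5110501-5111300), had 13.3 and 15.9 against 34.2 and 30.0 scaled RPKM, a log2 fold change of -1.09 (SE 0.25, limma adjusted p = 0.0433). The Syne1 peak was the only one of the 261 to pass on the values as deposited (limma adjusted p = 0.00629), where its log2 fold change was -1.36.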

How the data were processed

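ATAC-seq values of 2 old and 2 young samples of mouse bone MSCs were analysed. The deposited values, named RPKM by the authors and written with decimal commas, were used as a score per peak and sample. In each sample 100% were whole multiples of 1 step (within 0.01 steps), and so were read as not divided by peak width. A scale of 10000000 per library total was assumed, and library totals and the share in peaks depend on it. Per the labels, the submitters' processing used Bowtie2, Picard and mm10; the methods describe chromstaR peaks for other samples of the study and do not separately describe the old and young ones. Peak ends lay within GRCm38.p6 chromosomes (0 beyond).

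Values were divided by RLE factors, and log2(value + 1) was tested with limma 3.58.1 in R 4.3.3 (eBayes, trend and robust), adjusted over all 117282 peaks by Benjamini-Hochberg at 0.01. edgeR, which the study applied to its RPKM, was not run. The deposited values are not raw counts, and the counts recovered from them were tested with limma-voom as an alternative only. Fold changes on this scale understate those of weak peaks. Python 3.11.15, pandas 2.3.3, numpy 2.4.6, scipy 1.17.1 and matplotlib 3.10.9 made the summaries and plots. The limma step was tested on counts simulated with the same dispersion in all samples. In the data the median absolute difference between replicates over all peaks was 0.31 for old and 0.21 for young samples (log2, RLE-scaled). The simulation therefore cannot show how the step performs with such unequal spread.

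The peaks named are every own promoter, the 3 largest rises and falls that went the same way in all 4 old-young pairs, and the 3 lowest p. In each related list they are the 2 lowest p. For the rises and falls, non-overlap of the ages after scaling was a condition of the choice and is not a result. The remaining peaks described in the report were added for completeness after their values were seen. The 10 genes, lists and tests were chosen with earlier results of these data known. Alternatives were other scalings, pseudocounts 0.1 and 5, a filter on the weakest 25% of peaks, limma-voom on recovered counts, plain moderation, a threshold of 0.05, a replicate block, windows of 2 kb and 10 kb, and leaving out each sample. Some of the marker genes examined are not reported here.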

Additional observations from a re-analysis of the deposited data

How the results depend on the processing

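The count of 0 called peaks at the 10 genes was also found under every other scaling, pseudocount, filter, window, threshold and test run, with a replicate block, and without old replicate 2 or either young sample; leaving out a sample gave 0 to 2 called peaks, the 2 (Lmna and Cbx1) without old replicate 1, where 10313 of all peaks passed. Such fits, and the block, leave 1 residual degree of freedom. The fits with a sample left out assume that the lone sample varies like the other group. The block instead assumes an effect shared by same-numbered old and young samples. Plain moderation called 0 of all 117282 peaks, so that its 0 at the 10 genes was fixed in advance. Equal total signal called 22 of all peaks, pseudocount 0.1 called 24 and pseudocount 5 called 92. Quantile normalization called 95 and limma-voom 144. The filter kept 87961 peaks and called 15. With so few calls, a count of 0 among 29 peaks says little. With limma-voom, 2 of the 29 again had an unadjusted p under 0.05. Of the 261 peaks of the related lists, 3 passed with the replicate block (1.08% of all peaks passed), 3 at a threshold of 0.05 (1.12% of all peaks), 1 on the values as deposited (1.18%), and 0 to 27 with a sample left out, 27 without old replicate 1 (8.79%) and 2 without old replicate 2 (1.44%). As a check of pairing, the deviations of same-numbered old and young samples from their own age correlated at -0.099 across peaks. With 2 samples per age this rests on 1 contrast for each age, so it cannot exclude that equal numbers share a batch. The median over the 29 peaks was -0.27 as deposited and from -0.098 to 0.16 with a sample left out, the promoter median -0.32 and from -0.12 to 0.16, and the share lower in old MSCs 82.8% as deposited, 34.5% with equal total signal, and from 34.5% to 75.9% with a sample left out. The highest medians and the lowest share came without old replicate 1. Among values of the named peaks, 230 kept their direction and side of the threshold, 2 passed (above) and 18 changed sign, all at peaks whose scaled log2 fold change was 0.32 or smaller in size. Scaling to equal total signal gave 0.0018 at Lbr, 0.044 at Cbx3 and 0.030 at the internal Cbx5 promoter; quantile normalization gave -0.030 at Lmna and 0.036 at Cbx3; the deposited values gave -0.26 at Lmna, -0.059 at Setdb1 and -0.065 at the Ehmt2 promoter. With a sample left out, the range was -0.33 to 0.19 at Lbr, -0.17 to 0.23 at Lmna, -0.21 to 0.16 at Cbx3, -0.097 to 0.73 at Cbx1, -0.22 to 0.14 at the internal Cbx5 promoter and -0.24 to 0.050 at the Ehmt1 peak at +27.7 kb. Among promoters that kept their sign it was -0.36 to -0.078 at Suv39h2, 0.061 to 0.37 at Setdb1, -0.23 to -0.096 at the main Ehmt1 promoter, 0.056 to 0.38 at Ehmt2, -0.22 to -0.021 at Trim28 and -0.29 to -0.045 at the upstream Cbx5 promoter. It was -0.53 to -0.21 at the Ehmt1 peak at +15.7 kb, -0.43 to -0.20 at that at +111.9 kb and 0.61 to 1.26 at that at +126.1 kb. The cause of these changes was not tested. At peaks with under 20 counts the depth limits any fold change.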
